A study of Mus musculus with 9 samples.

Results

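The dopamine-cAMP-PKA signalling machinery was followed as a list of 32 genes, made up of G protein subunits, adenylyl cyclases, phosphodiesterases, protein kinase A subunits, their anchors and DARPP-32. Of these, 31 were matched by symbol to an Ensembl identifier among the 47729 genes of the deposited tables, and all 31 passed the filter on low values. Pde2a was not matched, so its level is not analysed here.

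Ribosome-bound RNA of the dorsal striatum was sequenced at postnatal day 28 in C57BL/6 mice, in 3 groups of 3 libraries described as biological triplicates. All mice carried Cre under the D1 dopamine receptor gene and the RiboTag, a ribosomal protein that Cre tags with HA so that its polyribosomes can be pulled down. The mice with stereotypy, that is repetitive behavior, and the mice without stereotypy also carried floxed TrkB (D1-Cre-flTrkB-RT), while the controls (D1-Cre-RT) did not. The labels call the precipitate enriched for D1 medium spiny neurons (D1 MSNs), the direct-pathway output cells of the striatum, and no library of the tissue before precipitation was used here, so the enrichment was not measured. Cre under this gene acts in any cell that uses the gene. In such bulk samples, fewer cells of a type and less RNA per cell cannot be told apart.

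Dopamine acting on the D1 receptor turns on the G protein Golf, which in striatal neurons stimulates adenylyl cyclase 5 to make cAMP. cAMP releases the catalytic subunits of protein kinase A (PKA) from their regulatory subunits, and PKA then phosphorylates DARPP-32, which in that form inhibits protein phosphatase 1. Phosphodiesterases break cAMP down and so set how far and how long the signal runs, and anchoring proteins hold PKA beside receptors and channels.

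The 3 members called lower in the pooled TrkB-deleted mice, described later, were the phosphodiesterase genes Pde1b, Pde4b and Pde4d. For each of them the 250 bases before a RefSeq start site follow 5′ to 3′ (GRCm38.p6), together with those of Prkar1a, which was not called but had the only full cAMP response element (CRE) among the members. Capitals mark the letters of the motifs searched on both strands, which were TGACGTCA for the full CRE, TGACG for its half-site and GCGNGGGCG for an Egr-type site.
Pde1b chr15:103502784-103503033 (+): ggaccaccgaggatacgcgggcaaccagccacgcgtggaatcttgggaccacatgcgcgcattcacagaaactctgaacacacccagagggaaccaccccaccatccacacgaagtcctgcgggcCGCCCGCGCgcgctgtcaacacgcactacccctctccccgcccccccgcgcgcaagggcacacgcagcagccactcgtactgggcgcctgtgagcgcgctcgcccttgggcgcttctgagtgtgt
Pde4b chr4:102421305-102421554 (+): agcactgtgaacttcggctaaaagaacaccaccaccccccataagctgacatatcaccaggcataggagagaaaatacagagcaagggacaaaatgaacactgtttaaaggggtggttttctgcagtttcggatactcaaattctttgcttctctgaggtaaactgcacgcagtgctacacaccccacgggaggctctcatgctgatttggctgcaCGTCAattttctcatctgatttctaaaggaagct
Pde4d chr13:108653927-108654176 (+): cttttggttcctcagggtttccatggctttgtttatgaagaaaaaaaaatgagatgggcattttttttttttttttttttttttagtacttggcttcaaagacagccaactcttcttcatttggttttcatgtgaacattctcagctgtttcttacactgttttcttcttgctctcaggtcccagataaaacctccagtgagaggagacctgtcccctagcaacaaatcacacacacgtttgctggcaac
Prkar1a chr11:109650699-109650948 (+): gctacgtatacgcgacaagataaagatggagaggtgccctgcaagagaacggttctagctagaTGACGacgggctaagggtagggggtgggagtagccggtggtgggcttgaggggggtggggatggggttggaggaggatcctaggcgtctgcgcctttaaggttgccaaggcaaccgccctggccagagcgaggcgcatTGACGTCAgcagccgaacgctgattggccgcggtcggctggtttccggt

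The Pde1b stretch ends at the annotated start of the gene and holds the Egr-type letters on the reverse strand, the Pde4b stretch holds a half-site on the reverse strand, and the Pde4d stretch holds none of the 3 motifs. The Pde4b and Pde4d stretches precede internal starts of these long genes, and which start was in use was not measured. Pde1b had 3 promoters in RefSeq, Pde4b 4, Pde4d 1 and Prkar1a 6, and the Egr-type letters of Pde1b, the half-site of Pde4b and the full CRE of Prkar1a were each in 1 of them. RefSeq gave 69 promoters for 27 of the 32 members, including 5 for Pde2a, and none for Gnal, Adcy6, Adcy8, Pde7a and Ppp1r1b. The full CRE was in 1 of the 69 and in 1.55% of all 32851 promoters. The half-site, which also lies inside every full CRE, was in 16 of the 69, for 12 members, and in 17.8% of all promoters. The Egr-type letters were in 9 of the 69, for 8 members with Pde2a among them, and in 4.70% of all promoters. Some promoters of a gene overlap, as for Pde8b and Gnas, so the same site can be counted more than once. A match describes letters only and shows no binding.

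Each library held between 27103152 and 40578512 reads, so that 3 reads, taken as the floor, corresponded to between 0.0739 and 0.111 CPM (counts of a gene scaled to the library total). Ntrk2, the TrkB gene, averaged 39.6 ± 4.85 CPM with stereotypy, 18.9 ± 4.67 CPM without stereotypy and 397 ± 84.8 CPM in the controls (SD, n = 3 each), and these values cover the whole gene, not the deleted exon alone. The 9 D1 MSN markers were detected in every group, with summed levels of 2349 to 2446 CPM with stereotypy, 1580 to 1954 CPM without stereotypy and 1902 to 2576 CPM in the controls. RNA of other cells was present too, and none of the markers matched was at 0 in all libraries. The 7 cortical excitatory neuron markers summed to 169 to 300.1 CPM with stereotypy, 598 to 1444 CPM without stereotypy and 277 to 855 CPM in the controls. The 6 matched D2 MSN markers summed to 269.9 to 444 CPM with stereotypy, 617 to 1075 CPM without stereotypy and 458 to 1456 CPM in the controls. The 12 astrocyte markers summed to 645 to 673 CPM with stereotypy, 452 to 567 CPM without stereotypy and 454 to 561 CPM in the controls, and the 11 vascular markers summed to 43.6 to 96.3, 13.6 to 28.7 and 22.01 to 46.3 CPM in the same groups. The 12 oligodendrocyte markers summed to 1227 to 2185 CPM with stereotypy, 788 to 1809 CPM without stereotypy and 596 to 1256 CPM in the controls. The other lists summed, in the same order of groups, to 21.7 to 30.6, 16.0 to 28.2 and 10.7 to 20.6 CPM for 6 oligodendrocyte precursor markers, 37.3 to 46.2, 21.7 to 30.0 and 16.4 to 34.0 CPM for 11 microglia markers and 221 to 399, 334 to 511 and 224 to 498 CPM for 9 striatal interneuron markers.

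Per length of exon, Ppp1r1b, which encodes DARPP-32, had the highest level of the list, at 1515 CPM per kb with stereotypy, 1696 CPM per kb without stereotypy and 1963 CPM per kb in the controls. Below it on the same scale came Pde1b, Adcy5, Gng7 and Prkar1a, which in the controls stood at 428, 327, 263 and 217 CPM per kb. The cyclase genes Adcy7 and Adcy8 and the phosphodiesterase gene Pde8a were lowest, with 0.163, 0.424 and 0.285 CPM per kb in the controls. Since it is not known whether reads were counted by strand, a member that shares exon bases with another gene could have gained or lost reads. This applies most to Adcy3 (22.1% of exon bases shared), Gnas (22%) and Ppp1r1b (15.7%), and to at most 8.95% of the bases of any other member.

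**Figure D1:**
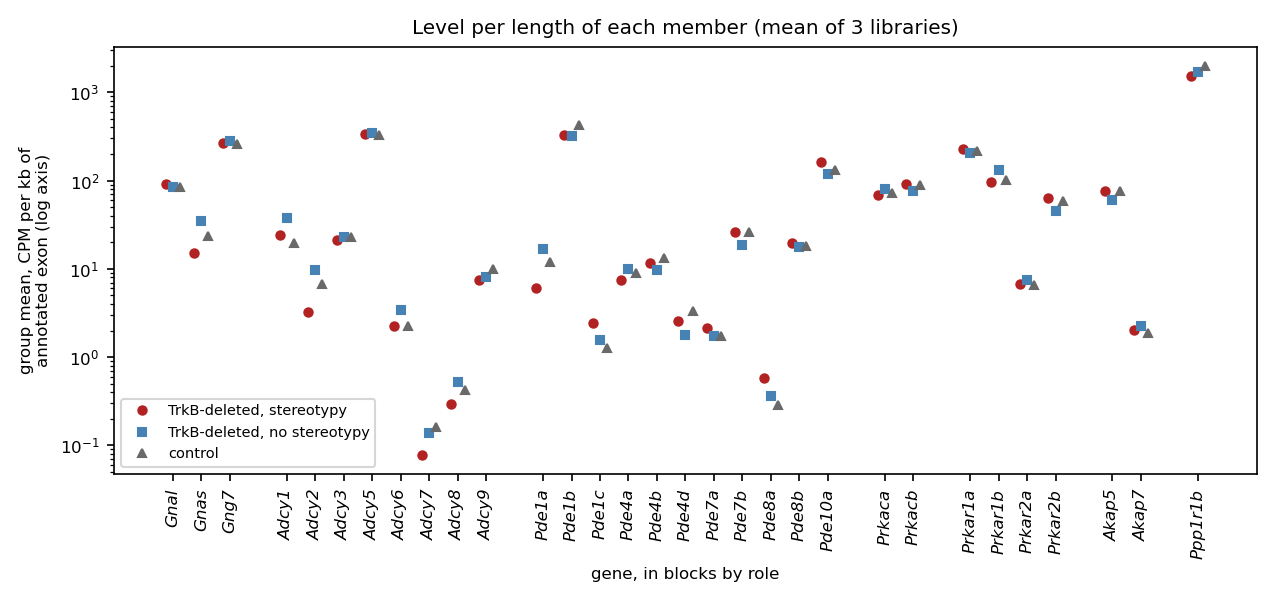
Mean level of each matched member in CPM per kb of exon on a log axis, in the order stereotypy, no stereotypy and control, grouped by role. Ppp1r1b lies highest in each group and Adcy7 lowest, and the 3 groups lie close together for most members.

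The middle of the list lay close to that of all genes. Its median log2 change, on the log2(CPM + 1) scale used for every change here, was 0.00 for stereotypy against control, against 0.05 over all 13695 genes tested. The median was 0.02 for no stereotypy against control (all genes 0.03), -0.09 for stereotypy against no stereotypy (all genes 0.02) and 0.02 for both TrkB-deleted groups against control (all genes 0.04). The comparisons share control or deleted libraries, so their values are not independent of each other.

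At an adjusted p under 0.05 in limma, 1 of the 31 members was called in stereotypy against control (3.23%), where 5.1% of all tested genes were called (3.58% higher and 1.53% lower), and it was higher. In no stereotypy against control 6 members were called (19.4%), 2 higher and 4 lower, against 6.77% of all genes (3.76% higher and 3.01% lower). Stereotypy against no stereotypy gave 5 calls (16.1%), 3 higher and 2 lower, against 10.2% of all genes (6.61% higher and 3.6% lower). With both TrkB-deleted groups pooled, 3 members were called (9.68%), all lower, against 5.72% of all genes, with 2.05% of all genes lower. In these comparisons 10 members were called at least once and 21 never. No test was made of whether the members were called more often than other genes.

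**Figure D2:**
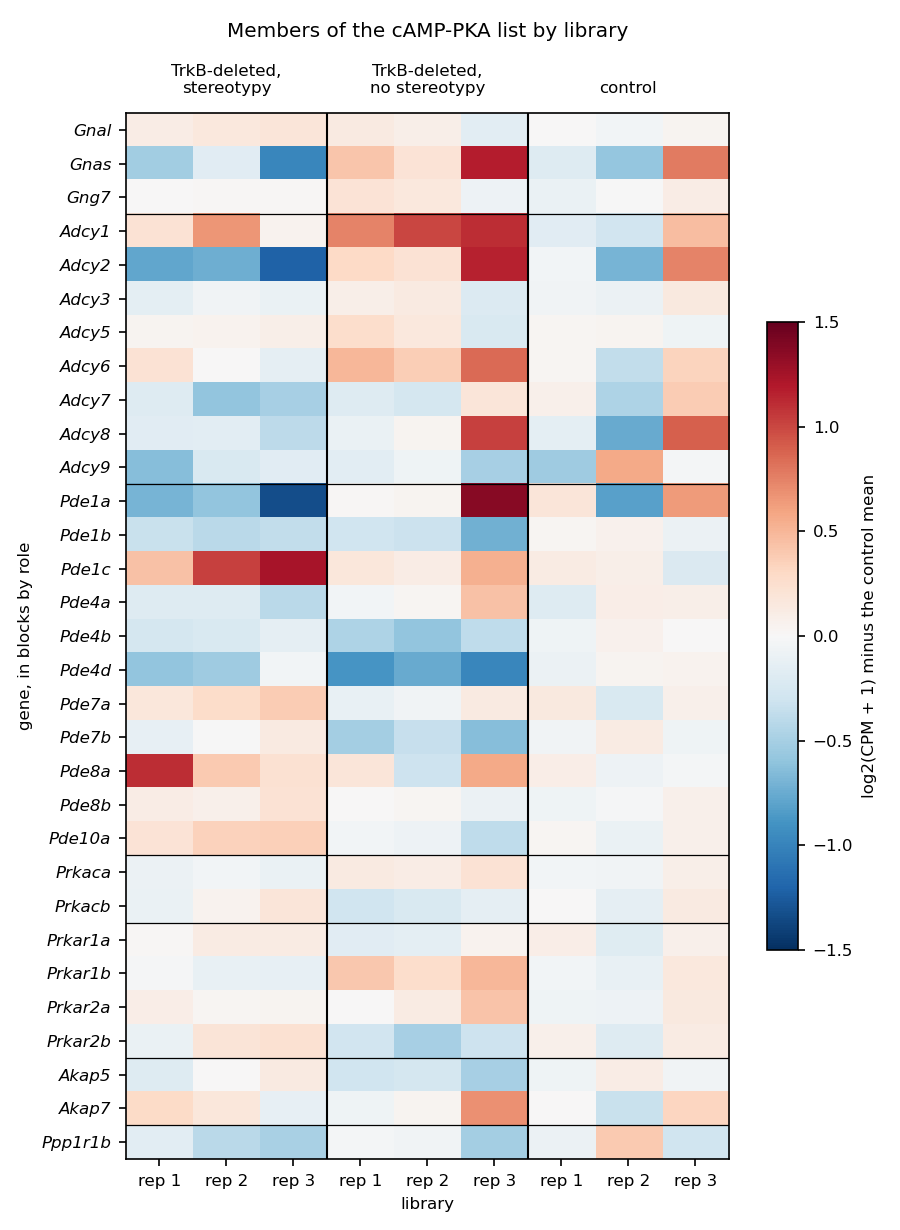
Level of each matched member (rows, by role) in each of the 9 libraries (columns, stereotypy left, no stereotypy next, controls right), as log2(CPM + 1) minus the mean of the 3 controls. Pde1b, Pde4b and Pde4d are below the control mean in both deleted groups, Adcy2, Gnas and Pde1a are lower with stereotypy than without it, and Gnal, Gng7 and Adcy5 lie close to 0.

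**Figure D3:**
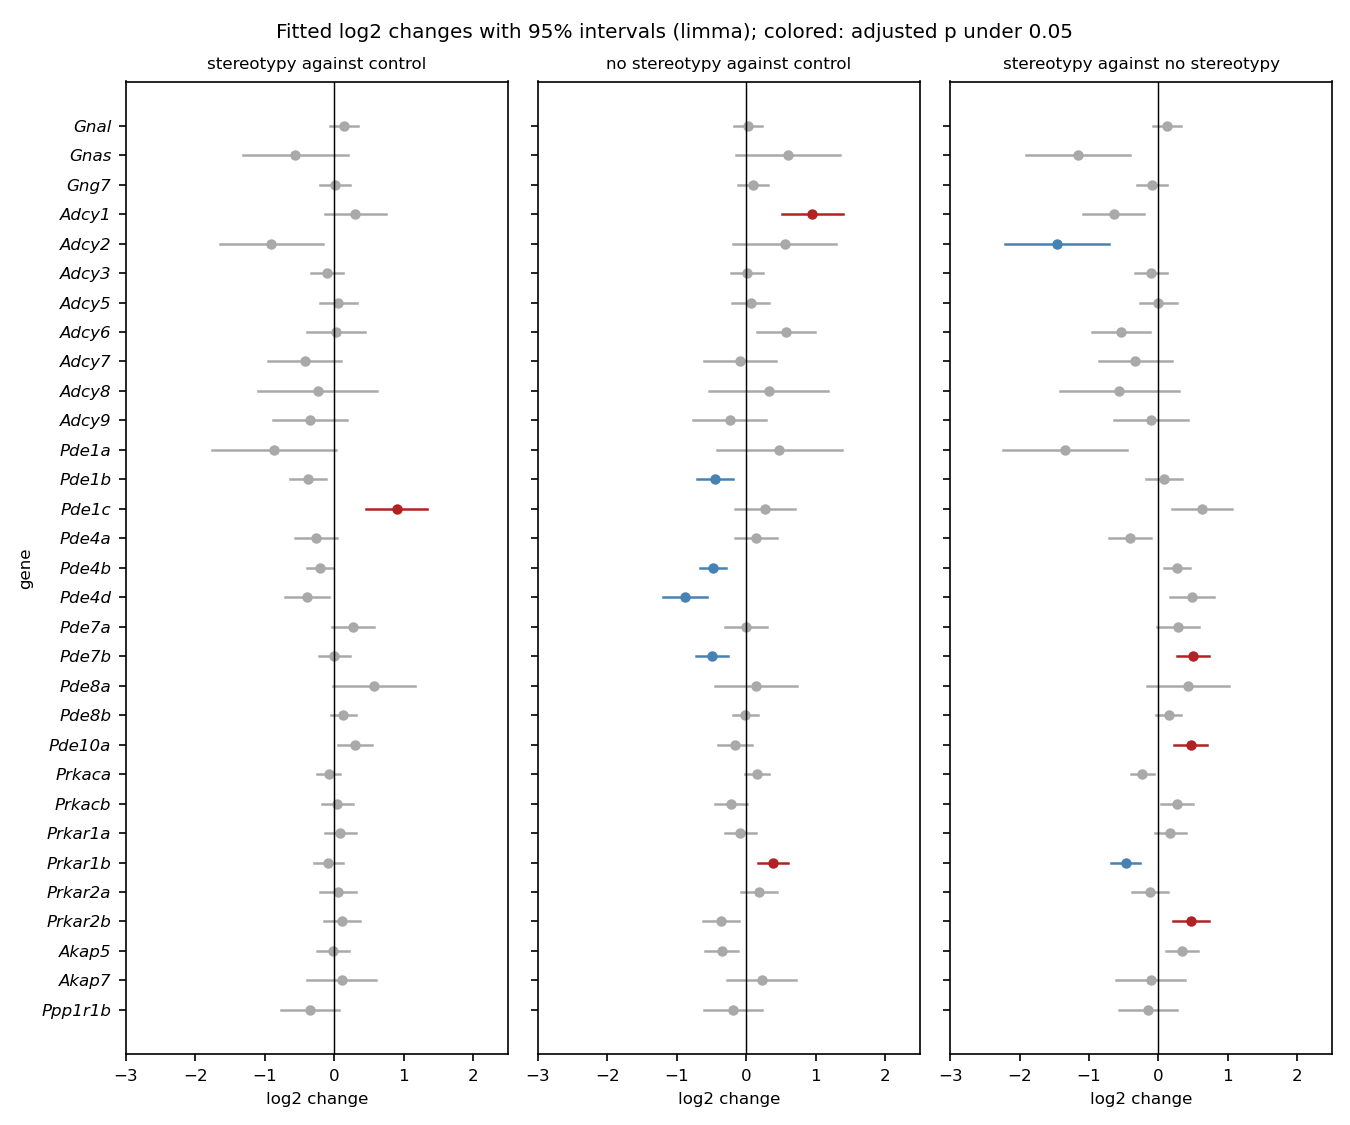
Log2 change of each matched member with its 95% interval for stereotypy against control, no stereotypy against control and stereotypy against no stereotypy, with calls at an adjusted p under 0.05 in red (higher) or blue (lower) and the rest in gray. Calls are 1, 6 and 5 in these comparisons, and before adjustment the interval excluded 0 for 6, 9 and 16 of the 31 members. Over all 13695 genes tested, 3288, 3079 and 4089 had an unadjusted p under 0.05 in limma in the same order.

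None of the 3 G protein subunits was called in any comparison by edgeR, DESeq2 or the main limma fit (all 9 libraries, no rescaling, covariates or weights). By each tool 1 of them had an unadjusted p under 0.05 in stereotypy against no stereotypy and 0 in the other comparisons. Gnal (ENSMUSG00000024524, chromosome 18, 67088216 to 67226792 on GRCm38), the alpha subunit of Golf, had 1005, 1038 and 1058 CPM with stereotypy, 1027, 989 and 838 CPM without stereotypy and 936, 906 and 959 CPM in the controls. Its libraries lay close together, with those of the stereotypy group just above all 3 controls. The change with stereotypy was 0.15 (SE 0.09, adjusted p = 0.356) and its 95% interval was -0.06 to 0.35, and without stereotypy it was 0.02 (SE 0.09, adjusted p = 0.923). Gng7 (ENSMUSG00000048240, chromosome 10, 80948624 to 81014945), the gamma subunit that pairs with Golf in these neurons, had 996, 1001 and 1006 CPM with stereotypy, 1148, 1112 and 945 CPM without stereotypy and 926, 986 and 1072 CPM in the controls. The 3 groups overlapped, and the changes against control were 0.01 with stereotypy (95% interval -0.20 to 0.22) and 0.10 without (95% interval -0.11 to 0.31).

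Gnas (ENSMUSG00000027523, chromosome 2, 174284320 to 174346744), the alpha subunit of Gs that serves most other cells, varied far more. Its levels were 169, 216 and 123 CPM with stereotypy, 325, 279.8 and 554 CPM without stereotypy and 213, 162 and 417 CPM in the controls. The stereotypy libraries all lay below the no stereotypy libraries, and the controls spread over both. The difference of stereotypy against no stereotypy was -1.16 (SE 0.34, adjusted p = 0.0553) and was not called, although its unadjusted p was under 0.05. It was called under 8 of the 24 alternatives. Among these were leaving out control replicate 2 or 3, at adjusted p of 0.0341 and 0.0234 and the same difference. TMM and median-of-ratios scaling of all libraries also gave the call in limma (adjusted p = 0.0477 and 0.0487), while edgeR and DESeq2 did not.

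Among the 8 adenylyl cyclase genes, Adcy1 was called higher without stereotypy than in controls and Adcy2 was called lower with stereotypy than without. The other 6 were not called in the main limma fit. Adcy5 (ENSMUSG00000022840, chromosome 16, 35154877 to 35305738), the cyclase coupled to Golf in medium spiny neurons, had 2419.9, 2432 and 2496 CPM with stereotypy, 2809.9, 2619 and 2007 CPM without stereotypy and 2401, 2408 and 2241 CPM in the controls. No-stereotypy libraries formed both the highest and the lowest values, and those of the other groups lay between them. Its change was 0.06 (SE 0.12, adjusted p = 0.8) with stereotypy and 0.06 (SE 0.12, adjusted p = 0.806) without, and the 95% interval of the first was -0.21 to 0.33. Adcy5 held 85.3% ± 1.51 of the cyclase level per length with stereotypy, 80.5% ± 3.82 without stereotypy and 84.1% ± 3.0 in the controls (SD, n = 3 each).

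Adcy1 (ENSMUSG00000020431, chromosome 11, 7063489 to 7178506), a cyclase stimulated by calcium and calmodulin, rose in mice without stereotypy. It had 277, 377 and 247 CPM with stereotypy, 401, 479 and 516 CPM without stereotypy and 212, 196 and 328 CPM in the controls. Every no stereotypy library lay above every other library, and the stereotypy libraries overlapped the controls. Against control the change was 0.95 (SE 0.20, adjusted p = 0.0191) without stereotypy and 0.31 (SE 0.20, adjusted p = 0.376) with it, and the difference of stereotypy against no stereotypy was -0.64 (SE 0.20, adjusted p = 0.0639). Leaving out control replicate 1 or no stereotypy replicates 2 or 3 ended the call, at adjusted p of 0.0748, 0.0627 and 0.0513.

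Adcy2 (ENSMUSG00000021536, chromosome 13, 68620043 to 68999541), a cyclase stimulated by G protein beta-gamma subunits, was lower with stereotypy than without it. It had 14.9, 15.4 and 10.8 CPM with stereotypy, 32.5, 30.6 and 59.4 CPM without stereotypy and 25.4, 15.8 and 44.7 CPM in the controls. All 3 stereotypy libraries lay below every other library, while no stereotypy and control libraries overlapped. The difference between the deleted groups was -1.46 (SE 0.34, adjusted p = 0.0289). Against control, stereotypy stood at -0.91 (SE 0.34, adjusted p = 0.135) and no stereotypy at 0.56 (SE 0.34, adjusted p = 0.37), neither called. Leaving out any library of the deleted groups lost the call, with adjusted p of 0.0542, 0.0736 and 0.113 without stereotypy replicates 1, 2 and 3 and of 0.0775, 0.0680 and 0.0562 without no stereotypy replicates 1, 2 and 3. A covariate of the cortical markers, chosen after seeing the data, left a difference of -0.57 (adjusted p = 0.0422).

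The other 5 cyclases were not called in the main limma fit. Adcy3, a calcium-sensitive form, averaged 132 ± 4.38 CPM with stereotypy, 143 ± 17.5 CPM without stereotypy and 142 ± 12.5 CPM in the controls (SD, n = 3 each), and its 95% interval for stereotypy against control was -0.33 to 0.13. Adcy6, the close relative of Adcy5, averaged 15.4 ± 2.03 CPM with stereotypy, 23.0 ± 4.28 CPM without stereotypy and 15.3 ± 3.90 CPM in the controls, and the no stereotypy libraries lay above all others. Its change without stereotypy was 0.57 (SE 0.19, adjusted p = 0.106), and the call was made without control replicate 3 (log2 change 0.74, adjusted p = 0.0407). In stereotypy against no stereotypy Adcy6 differed by -0.54 (SE 0.19, adjusted p = 0.0885), and this was called without control replicate 2 (adjusted p = 0.0455) and by DESeq2 (log2 difference -0.60, adjusted p = 0.0291). Limma also called it with array weights (-0.45, adjusted p = 0.0221), the glial and vascular covariate (-0.94, adjusted p = 0.0424) and only the libraries compared (adjusted p = 0.0437). For both deleted groups the cortical covariate called Adcy6 higher (0.32, adjusted p = 0.0482). Adcy9 ranged from 31.6 to 74.1 CPM over the 9 libraries, Adcy8 from 1.36 to 7.12 CPM and Adcy7 from 0.354 to 1.66 CPM.

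The phosphodiesterases held most of the calls. Of 11 tested, 1 was higher with stereotypy than in controls, 4 were lower without stereotypy than in controls, 2 were higher with stereotypy than without, and 3 were lower in the pooled deleted groups. Over all tested genes 3.58% were called higher, 3.01% lower, 6.61% higher and 2.05% lower in these comparisons. The median log2 change of the 11 was 0.28 in stereotypy against no stereotypy and -0.02 in no stereotypy against control.

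**Figure D4:**
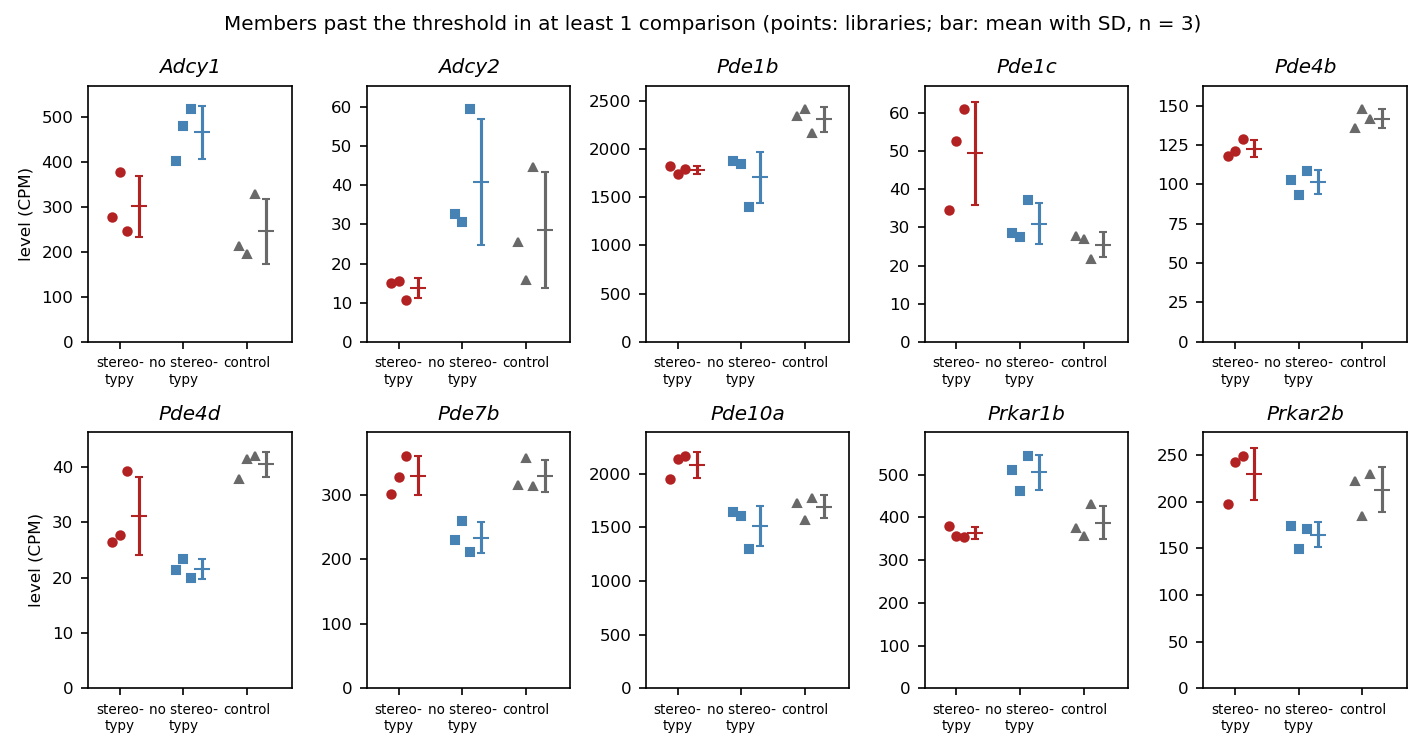
CPM of the 10 members called in at least 1 comparison, as 1 point per library with the mean and SD of each group, stereotypy left, no stereotypy next and control right. The 3 controls lie above all 6 TrkB-deleted libraries for Pde1b and Pde4b, the no stereotypy libraries lie lowest for Pde4b, Pde4d, Pde7b and Prkar2b, and they lie highest for Adcy1 and Prkar1b.

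Pde1b (ENSMUSG00000022489, chromosome 15, 103503034 to 103530052), the calcium- and calmodulin-dependent phosphodiesterase of striatal neurons, was called lower in the pooled deleted groups and in mice without stereotypy. It had 1824, 1739.7 and 1790.4 CPM with stereotypy, 1878, 1843 and 1402 CPM without stereotypy and 2348, 2413 and 2167 CPM in the controls. All 6 deleted libraries lay below all 3 controls, and the deleted groups overlapped each other. The group means were 77.3% (stereotypy) and 73.9% (no stereotypy) of that of the controls. The change of both deleted groups was -0.41 (SE 0.10, adjusted p = 0.0425). It was -0.45 (SE 0.12, adjusted p = 0.0468) without stereotypy and -0.37 (SE 0.12, adjusted p = 0.0901) with it, of which only the first was called, and the difference of stereotypy against no stereotypy was 0.08 (95% interval -0.18 to 0.33). These calls lay near the threshold. Leaving out any 1 of the 9 libraries gave an adjusted p of 0.0521 to 0.120 for no stereotypy against control. For both deleted groups it lay between 0.0513 and 0.116 without any library other than no stereotypy replicate 3. With stereotypy alone the change was called without no stereotypy replicate 3 (adjusted p = 0.0327). It was also called without replicate 3 of both the control and no stereotypy groups (adjusted p = 0.0333). On the 9 libraries it was called by DESeq2 (log2 change -0.43, adjusted p = 0.0115) and with the covariate of cortical markers (-0.48, adjusted p = 0.0156). A covariate of glial and vascular markers left a change of both groups of -0.27 (adjusted p = 0.491). With this covariate 80 of all genes were called for both groups, compared with 784 without it. The covariate of cortical markers kept the call of both groups (log2 change -0.42, adjusted p = 0.00774), along with 1394 of all genes.

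Pde4b (ENSMUSG00000028525, chromosome 4, 102087543 to 102607259) encodes a cAMP-specific phosphodiesterase, and the half-site shown above lies in 1 of its 4 RefSeq promoters. It had 118, 121 and 129 CPM with stereotypy, 103, 93.4 and 109 CPM without stereotypy and 136, 148 and 142 CPM in the controls. The groups did not overlap, with the controls highest, the stereotypy libraries next and those without stereotypy lowest. The change was -0.48 (SE 0.09, adjusted p = 0.0091) without stereotypy, a call kept under all 24 alternatives tried, and -0.34 (SE 0.07, adjusted p = 0.0229) for both deleted groups. With stereotypy it was -0.21 (SE 0.09, adjusted p = 0.169), not called, and the difference of stereotypy against no stereotypy was 0.27 (SE 0.09, adjusted p = 0.0643), not called either. For both groups, leaving out control replicates 2 or 3, stereotypy replicates 1 or 2, or no stereotypy replicates 1 or 2 ended the call, at adjusted p of 0.0641, 0.0587, 0.0522, 0.0649, 0.0550 and 0.0543. So did a covariate of glial and vascular markers (log2 change -0.39, adjusted p = 0.185). The covariate of cortical markers kept the call (log2 change -0.34, adjusted p = 0.0149).

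Pde4d (ENSMUSG00000021699, chromosome 13, 108449948 to 109953461), another cAMP-specific form, showed the largest fall of the list without stereotypy. It had 26.4, 27.7 and 39.2 CPM with stereotypy, 21.4, 23.4 and 19.96 CPM without stereotypy and 37.9, 41.5 and 42.0 CPM in the controls. The no stereotypy libraries lay below all others, and the highest stereotypy library reached into the range of the controls. Its level without stereotypy was 53.3% of the control mean, a change of -0.88 (SE 0.14, adjusted p = 0.00663) that was also kept under all 24 alternatives. The change of both deleted groups was -0.63 (SE 0.12, adjusted p = 0.0156), that of stereotypy alone was -0.39 (SE 0.14, adjusted p = 0.134), and the difference of stereotypy against no stereotypy was 0.49 (SE 0.14, adjusted p = 0.0551). The change with stereotypy was called without stereotypy replicate 3, at -0.56 (adjusted p = 0.0457). For both groups the covariate of glial and vascular markers ended the call (log2 change -0.44, adjusted p = 0.324), as did leaving out replicate 3 of the control and no stereotypy groups at once (adjusted p = 0.0602). The covariate of cortical markers kept the call (log2 change -0.64, adjusted p = 0.00615).

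Pde7b (ENSMUSG00000019990, chromosome 10, 20398004 to 20725078), a cAMP-specific phosphodiesterase with high striatal expression, fell in mice without stereotypy relative to both other groups. It had 301, 327 and 360.2 CPM with stereotypy, 229.7, 258 and 211 CPM without stereotypy and 315, 357 and 313 CPM in the controls. All no stereotypy libraries lay below the other 6, which overlapped. The change without stereotypy was -0.50 (SE 0.10, adjusted p = 0.0176), and stereotypy against no stereotypy gave 0.50 (SE 0.10, adjusted p = 0.024). Stereotypy against control gave 0.00 (95% interval -0.23 to 0.23). The call against control was lost without no stereotypy replicate 1 (adjusted p = 0.0746). Between the deleted groups it was lost without stereotypy replicates 2 or 3 (adjusted p = 0.0715 and 0.0939) or no stereotypy replicates 1 or 2 (0.0789 and 0.0648), and with the covariate of cortical markers, at 0.31 (adjusted p = 0.0724). The glial and vascular covariate kept it, at 0.71 (adjusted p = 0.0189).

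Pde10a (ENSMUSG00000023868, chromosome 17, 8525372 to 8986648), the dual cAMP and cGMP phosphodiesterase typical of medium spiny neurons, was higher with stereotypy than without. It had 1948, 2143 and 2169 CPM with stereotypy, 1641, 1609 and 1302 CPM without stereotypy and 1730.5, 1573 and 1776 CPM in the controls. The stereotypy libraries lay above the other 6, which overlapped. The difference between the deleted groups was 0.47 (SE 0.11, adjusted p = 0.0296), whereas against control it was 0.30 (SE 0.11, adjusted p = 0.129) with stereotypy and -0.16 (SE 0.11, adjusted p = 0.42) without, neither called. It was not called without stereotypy replicates 2 or 3 (adjusted p = 0.0936 and 0.114) or no stereotypy replicates 1 or 2 (0.0775 and 0.0723). A covariate of cortical markers left 0.39 (adjusted p = 0.0797), and one of glial and vascular markers left 0.50 (adjusted p = 0.111).

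Pde1c (ENSMUSG00000004347, chromosome 6, 56069804 to 56569103), another calcium- and calmodulin-dependent form, was the member called higher with stereotypy than in controls. It had 34.6, 52.8 and 61.0 CPM with stereotypy, 28.5, 27.4 and 37.1 CPM without stereotypy and 27.8, 27.0 and 21.6 CPM in the controls. All stereotypy libraries lay above all controls, and stereotypy replicate 1 lay below the highest library of the no stereotypy group. The change was 0.90 (SE 0.20, adjusted p = 0.0309) with stereotypy and 0.27 (SE 0.20, adjusted p = 0.466) without, and the difference between the deleted groups was 0.63 (SE 0.20, adjusted p = 0.0647), which was called without stereotypy replicate 1 (adjusted p = 0.0344). Leaving out control replicates 2 or 3 (adjusted p = 0.0503 and 0.0750) or stereotypy replicates 2 or 3 (0.119 and 0.0959) ended the call against control. The astrocyte markers also lay higher with stereotypy, at 645 to 673 CPM against 454 to 561 CPM in the controls. A covariate of glial and vascular markers left the change of Pde1c at 0.94, with an adjusted p of 0.300. With this covariate 21 of all genes were called in stereotypy against control, compared with 699 without it. The covariate of cortical markers kept the call on Pde1c (log2 change 0.87, adjusted p = 0.0291), along with 1571 of all genes.

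Pde1a (ENSMUSG00000059173, chromosome 2, 79834453 to 80129458), the remaining calcium- and calmodulin-dependent form, was not called, with 40.1, 43.2 and 25.5 CPM with stereotypy, 66.4, 67.5 and 170.0 CPM without stereotypy and 74.1, 36.7 and 103 CPM in the controls. Its stereotypy libraries lay below all no stereotypy libraries and overlapped the controls. The difference of stereotypy against no stereotypy was -1.34 (SE 0.41, adjusted p = 0.0589), and it was called when control replicate 2 (adjusted p = 0.0286) or control replicate 3 (0.0427) was left out, and by edgeR on the recovered reads (log2 difference -1.49, adjusted p = 0.0462).

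The cAMP-specific forms Pde4a, Pde7a, Pde8a and Pde8b were called in no comparison by the main limma fit. Pde4a averaged 56.7 ± 4.75 CPM with stereotypy, 76.2 ± 14.5 CPM without stereotypy and 68.4 ± 7.59 CPM in the controls (SD, n = 3 each), with a difference of -0.41 (SE 0.14, adjusted p = 0.0812) for stereotypy against no stereotypy, which DESeq2 called (log2 difference -0.45, adjusted p = 0.0262). Pde8b averaged 117 ± 5.83 CPM with stereotypy, 105 ± 4.68 CPM without stereotypy and 106 ± 5.67 CPM in the controls, and its interval against control was -0.05 to 0.31 with stereotypy. Array weights led to a call on Pde7a in stereotypy against no stereotypy (0.33, adjusted p = 0.0247). Pde7a ranged from 11.3 to 17.7 CPM and Pde8a from 0.728 to 3.65 CPM over the 9 libraries.

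Of the phosphodiesterase level per length, Pde1b made up 57.8% ± 1.69 with stereotypy, 61.5% ± 3.41 without stereotypy and 66.3% ± 2.46 in the controls, and Pde10a made up 28.4% ± 1.37, 23.0% ± 0.488 and 20.4% ± 1.58 in the same groups (SD, n = 3 each). These were the highest shares in every library. Each share rests on the levels of all 11 forms, so a gain of one lowers the others.

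Neither PKA catalytic subunit was called by the main limma fit or edgeR, although both had an unadjusted p under 0.05 in stereotypy against no stereotypy. Prkacb (ENSMUSG00000005034, chromosome 3, 146729574 to 146812990), the beta form of the kinase subunit, had 731, 815 and 887 CPM with stereotypy, 636, 666 and 714 CPM without stereotypy and 785, 711 and 858 CPM in the controls. Every stereotypy library lay above every no stereotypy library, and the controls overlapped both. The difference between the deleted groups was 0.27 (SE 0.10, adjusted p = 0.113). Prkaca, the alpha form, averaged 170.3 ± 3.67 CPM with stereotypy, 200.2 ± 7.48 CPM without stereotypy and 179.9 ± 9.52 CPM in the controls (SD, n = 3 each), with a difference of -0.23 (SE 0.08, adjusted p = 0.0758) in the opposite direction, and DESeq2 called it (log2 difference -0.25, adjusted p = 0.0179). With array weights limma called both differences, Prkacb at 0.30 (adjusted p = 0.0108) and Prkaca at -0.20 (adjusted p = 0.0227), along with 4698 of all genes. Prkaca made up 42.6% ± 2.52 of the catalytic level per length with stereotypy, 51.2% ± 0.935 without stereotypy and 44.8% ± 1.31 in the controls.

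A pair of the 4 regulatory subunits was called, in opposite directions. Prkar1b (ENSMUSG00000025855, chromosome 5, 139017306 to 139150001), the brain-enriched type I beta subunit, was highest without stereotypy. It had 380.3, 357 and 354 CPM with stereotypy, 509.7, 462 and 544 CPM without stereotypy and 374, 357 and 430.0 CPM in the controls. All 3 no stereotypy libraries lay above the other 6, and stereotypy and control libraries overlapped. The change without stereotypy was 0.39 (SE 0.10, adjusted p = 0.0374), the change with stereotypy was -0.09 (SE 0.10, adjusted p = 0.617), and the difference of stereotypy against no stereotypy was -0.47 (SE 0.10, adjusted p = 0.0231). The call against control was lost without any library other than control replicate 3, with adjusted p of 0.0529 to 0.131, and in edgeR (log2 change 0.34, adjusted p = 0.0524). Between the deleted groups it was lost without stereotypy replicates 2 or 3 (adjusted p = 0.0736 and 0.0893) or no stereotypy replicates 1 or 2 (0.0775 and 0.0648), and with the covariate of cortical markers, at -0.31 (adjusted p = 0.0670). The glial and vascular covariate kept it, at -0.65 (adjusted p = 0.0221), but ended the call against control, at 0.32 (adjusted p = 0.0820).

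Prkar2b (ENSMUSG00000002997, chromosome 12, 31958476 to 32061296), the type II beta subunit, was lowest without stereotypy. It had 198, 242 and 249 CPM with stereotypy, 173, 149 and 171 CPM without stereotypy and 222, 185 and 230.0 CPM in the controls. The no stereotypy libraries lay below all others, while stereotypy and control libraries overlapped. Stereotypy against no stereotypy gave 0.47 (SE 0.12, adjusted p = 0.0335), and against control the changes were 0.11 (SE 0.12, adjusted p = 0.599) with stereotypy and -0.36 (SE 0.12, adjusted p = 0.0973) without. This call was lost without stereotypy replicates 2 or 3 (adjusted p = 0.106 and 0.128) or no stereotypy replicates 1 or 2 (0.0872 and 0.114), and with the glial and vascular covariate, at 0.31 (adjusted p = 0.312). Without control replicate 2, Prkar2b was also called lower in no stereotypy against control (log2 change -0.46, adjusted p = 0.0433).

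Prkar1a (ENSMUSG00000020612, chromosome 11, 109649405 to 109669656), the type I alpha subunit, with the full CRE in 1 of its 6 promoters, was not called. It had 947, 1015 and 1022 CPM with stereotypy, 834, 846 and 969 CPM without stereotypy and 1004, 825 and 987 CPM in the controls, and the 3 groups overlapped. Its change was 0.09 (SE 0.10, adjusted p = 0.632) with stereotypy and -0.09 (SE 0.10, adjusted p = 0.671) without. Prkar2a, the type II alpha subunit, averaged 43.2 ± 1.15 CPM with stereotypy, 47.5 ± 7.42 CPM without stereotypy and 41.4 ± 3.70 CPM in the controls (SD, n = 3 each) and was not called. Of the regulatory level per length, Prkar1b took 24.2% ± 1.81 with stereotypy, 34.0% ± 0.982 without stereotypy and 26.5% ± 1.58 in the controls, and Prkar2b took 15.9% ± 1.43, 11.6% ± 0.773 and 15.2% ± 0.277 in the same groups.

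Neither PKA anchor was called by the main limma fit or edgeR. Akap5 (ENSMUSG00000021057, chromosome 12, 76324891 to 76334153), which holds PKA and calcineurin at synapses, had 458, 528 and 576 CPM with stereotypy, 425, 435 and 371 CPM without stereotypy and 501, 567 and 506 CPM in the controls. No stereotypy libraries lay below all others, and the other groups overlapped. The change was -0.35 (SE 0.11, adjusted p = 0.0724) without stereotypy, and stereotypy differed from no stereotypy by 0.34 (SE 0.11, adjusted p = 0.0633). The difference was called without control replicate 2 (adjusted p = 0.0483) or stereotypy replicate 1 (adjusted p = 0.0495), and DESeq2 called the change against control (log2 change -0.39, adjusted p = 0.0260). Limma also called the difference with quantile normalization (0.38, adjusted p = 0.0450) and with array weights (0.29, adjusted p = 0.0141). Akap7, an anchor found at membranes, ranged from 6.22 to 13.6 CPM.

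Ppp1r1b (ENSMUSG00000061718, chromosome 11, 98348404 to 98357796) had 5046, 4241 and 4024 CPM with stereotypy, 5524, 5426 and 3950.0 CPM without stereotypy and 5278, 7387 and 4575 CPM in the controls. Control replicate 2 was the highest library and no stereotypy replicate 3 the lowest, and all groups overlapped. The changes against control were -0.35 (SE 0.19, adjusted p = 0.287) with stereotypy and -0.20 (SE 0.19, adjusted p = 0.591) without, with 95% intervals of -0.77 to 0.07 and -0.62 to 0.22. With the covariate of cortical markers limma called the change with stereotypy (-0.55, adjusted p = 0.0341). DESeq2 and edgeR did not call it, though each gave an unadjusted p under 0.05.

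Several members followed the summed level of the 7 cortical excitatory neuron markers from library to library. Of the 36 pairs of libraries, the library with more marker RNA also had more Adcy2 in 34, Gnas in 33, Adcy8 and Prkar1b in 32 each, and Pde1a, Adcy6 and Prkaca in 31 each. Pde7b was ordered with the markers in 5 pairs, Akap5 in 6 and Pde10a in 9. These counts describe 9 libraries that share the group differences, so a member that differs between the groups tends to a high or low count. They were not made over all tested genes, so whether these members stand out was not tested. The marker sum was 300.1, 275 and 169 CPM with stereotypy, 637, 598 and 1444 CPM without stereotypy and 471, 277 and 855 CPM in the controls, so no stereotypy replicate 3 and control replicate 3 stood highest in their groups. Without both of these libraries, an alternative chosen after seeing the data, 8 members were called in stereotypy against no stereotypy, 4 higher and 4 lower, along with 12.4% of all genes. A covariate of the cortical markers left 2 calls in that comparison, Adcy2 and Prkar2b, and calls on 9.81% of all genes. The D2 MSN marker sum was also lowest with stereotypy, at 321, 444 and 269.9 CPM. It was 617, 741 and 1075 CPM without stereotypy and 458, 641 and 1456 CPM in the controls. The striatal interneuron sum was also highest in replicate 3 within the control and no stereotypy groups. Members were not counted against these lists, so whether they follow cortical RNA in particular was not tested.

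**Figure D5:**
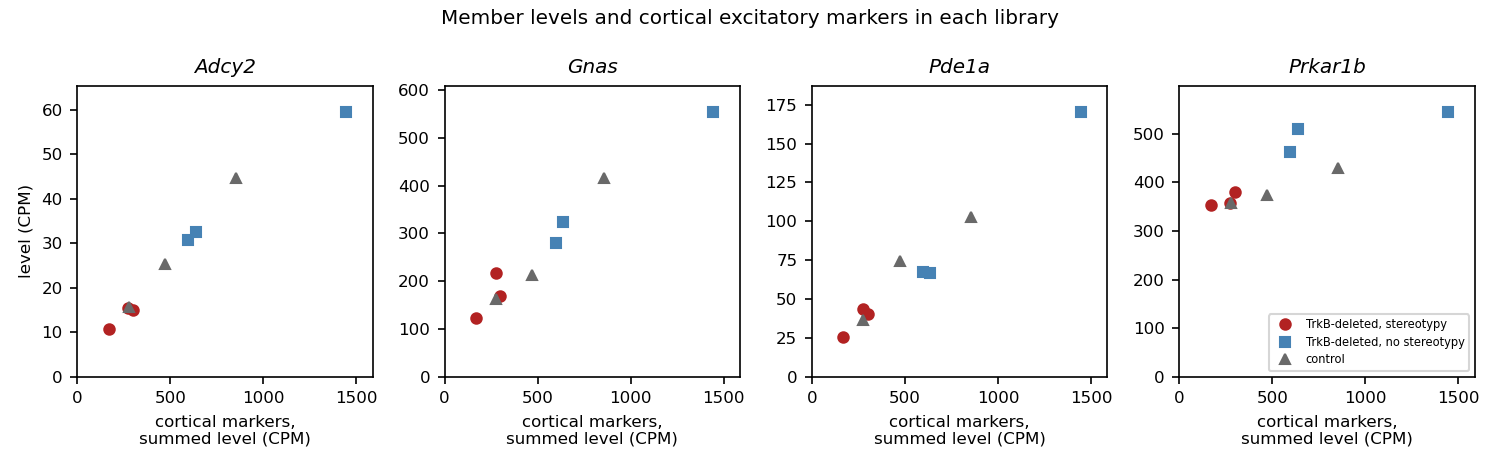
CPM of Adcy2, Gnas, Pde1a and Prkar1b (vertical axes) against the summed CPM of 7 cortical excitatory neuron markers (horizontal axes) in each of the 9 libraries. The stereotypy libraries sit at the low end, with marker sums of 169 to 300.1 CPM, and the no stereotypy library with 1444 CPM has the highest level of all 4 genes.

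All 5 calls between the deleted groups depended on the libraries. Without stereotypy replicates 2 or 3 or no stereotypy replicates 1 or 2, in this order, limma called 0 members and 1, 0, 0 and 0 of all genes, while 15, 13, 15 and 15 members had an unadjusted p under 0.05. Over all 13695 genes tested, 3269, 2873, 2926 and 3088 had such a p in these fits. On the 9 libraries, edgeR called 6 members and DESeq2 12, along with 1335 and 2343 of all genes.

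Around the listed machinery, 97 of 116 further genes of the pathway were tested. Of these, 5 were called in stereotypy against control (5.15%, all genes 5.1%), 12 in no stereotypy against control (12.4%, all genes 6.77%) and 13 in stereotypy against no stereotypy (13.4%, all genes 10.2%). Among 21 receptors that act on adenylyl cyclase, 1 was called higher with stereotypy than in controls, and 3 were called higher and 2 lower without stereotypy than in controls. Stereotypy against no stereotypy gave 5 calls, 3 higher, Drd1 and Htr1b among them, and 2 lower, Adora1 and Adra2a. Drd1, the D1 receptor itself, had 864, 841 and 955 CPM with stereotypy, 627, 655 and 515 CPM without stereotypy and 866, 865 and 684 CPM in the controls. The no stereotypy libraries were lowest and did not overlap those of the other groups, which overlapped each other. Drd1 was higher with stereotypy than without by 0.57 (SE 0.12, adjusted p = 0.0249), and its change against control was -0.42 (SE 0.12, adjusted p = 0.0646) without stereotypy and 0.15 (SE 0.12, adjusted p = 0.498) with it. The call on Drd1 was lost without stereotypy replicates 2 or 3 (adjusted p = 0.0699 and 0.0994) or no stereotypy replicates 1 or 2 (0.0775 and 0.0680).

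Htr1b, the serotonin receptor that inhibits adenylyl cyclase, gave -0.68 (SE 0.18, adjusted p = 0.0444) without stereotypy against control. Other inhibitory receptors rose in that comparison, as Adora1, the adenosine A1 receptor, changed by 0.47 (SE 0.08, adjusted p = 0.0096) and Adra2a, an adrenergic receptor, by 1.18 (SE 0.30, adjusted p = 0.0397). Gpr149, an orphan receptor, was higher in both deleted groups, with 31.5, 39.1 and 23.5 CPM with stereotypy, 34.5, 32.5 and 25.5 CPM without stereotypy and 9.36, 16.2 and 6.96 CPM in the controls. All 6 deleted libraries lay above the controls, and the log2 changes were 1.5 (adjusted p = 0.0134) with stereotypy and 1.49 (SE 0.26, adjusted p = 0.0091) without.

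Of 19 other G protein genes, Gnb4, a beta subunit, was higher with stereotypy than in controls (log2 change 0.50, adjusted p = 0.0364), and Gng3, a gamma subunit, and Ric8a, a chaperone of alpha subunits, were lower with stereotypy than without (-0.47, adjusted p = 0.0246 and -0.33, adjusted p = 0.0462). Of 6 other phosphodiesterases only Pde3b was called, higher with stereotypy than in controls (0.66, adjusted p = 0.0323). Of the 2 further genes tested in the list around adenylyl cyclase, Cap2 was lower without stereotypy (-0.37, adjusted p = 0.0397). It encodes a cyclase-associated protein that acts on actin and is not itself a cyclase.

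Of 13 other anchors and inhibitors of PKA, Akap12 was higher in both deleted groups (1.02, adjusted p = 0.0207 with stereotypy and 0.96, adjusted p = 0.0174 without), at levels of 8.84 ± 1.38 CPM with stereotypy, 8.41 ± 0.976 CPM without stereotypy and 3.94 ± 1.38 CPM in the controls (SD, n = 3 each). Pkia, an inhibitor of the catalytic subunit, was lower without stereotypy (-0.35, adjusted p = 0.0419), and it and the anchor Akap11 were higher with stereotypy than without (0.42 and 0.50). Among 7 cAMP effectors other than PKA, Rapgef3, the exchange factor Epac1, averaged 6.46 ± 1.36 CPM with stereotypy, 6.38 ± 0.742 CPM without stereotypy and 3.20 ± 0.668 CPM in the controls. It was higher in both deleted groups, by 0.83 (SE 0.18, adjusted p = 0.0309) with stereotypy and 0.82 (SE 0.18, adjusted p = 0.0231) without. Hcn4, a channel gated by cyclic nucleotides, was higher without stereotypy (1.53 (SE 0.27, adjusted p = 0.0091)).

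Of 18 phosphatase genes and partners of DARPP-32, Ppp3r1, the regulatory subunit of calcineurin, was lower without stereotypy (-0.46, adjusted p = 0.0467). It was called higher with stereotypy than without, together with Ppp3ca, the calcineurin catalytic subunit, and Ppp1r9a, a partner of protein phosphatase 1 (0.44, 0.54 and 0.55). Among 11 CREB family genes and coactivators, Crem was lower without stereotypy (-0.70, adjusted p = 0.0403) and Creb1, the factor that PKA phosphorylates, was higher with stereotypy than without (0.60, adjusted p = 0.0396).

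The calls on these further genes in stereotypy against no stereotypy were all lost without stereotypy replicates 2 or 3 or no stereotypy replicates 1 or 2, where limma called 0 or 1 of all genes. In that comparison Ppp3ca, Ppp3r1 and Creb1 were also lost without stereotypy replicate 1, Htr1b, Ppp3ca and Ric8a without no stereotypy replicate 3, and Ric8a without control replicates 1 or 3, with adjusted p of 0.0517 to 0.109. Against control, the calls without stereotypy on Gpr149, Adora1 and Hcn4 were kept whichever library was left out. Gpr149 with stereotypy was lost without stereotypy replicate 2 (adjusted p = 0.0719). Akap12 was lost with stereotypy without stereotypy replicates 2 or 3 (0.0896 and 0.0729), and in the other deleted group without control replicate 1 (0.0668) or no stereotypy replicate 1 (0.0854). Rapgef3 was lost with stereotypy without control replicate 1 (0.0676), stereotypy replicates 2 or 3 (0.121 and 0.0749) or no stereotypy replicate 2 (0.0510), and in the other deleted group without control replicate 1 (0.0811) or no stereotypy replicates 1 or 2 (0.104 and 0.0787). The calls on Gnb4, Pde3b, Htr1b, Adra2a, Cap2, Pkia, Ppp3r1 and Crem against control were each lost without 5 or more of the 9 libraries, with adjusted p of up to 0.144, 0.121, 0.101, 0.113, 0.172, 0.157, 0.165 and 0.159.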

How the data were processed

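The authors deposited 1 table per library of CPM values, reads per gene scaled to the library total, aligned with TopHat to GRCm38 per the submitters' processing notes. How reads were assigned to genes, and whether by strand, is not given in the sources used here. Of the deposited values, 100% in each library came out as whole numbers of reads to within 0.1 reads, so whole read counts were recovered. Symbols and positions came from GENCODE M21, which matched 47310 of 47729 identifiers, and the 419 without a match held no more than 0.0632% of any library's reads. The members, the other gene lists and the rule for naming genes were chosen with earlier results of these data known.

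A gene was tested if 3 or more libraries had 1 CPM or more, on the log2(CPM + 1) scale, which shrinks the change of a low gene, in 1 limma fit of all 9 libraries (limma 3.58.1, R 4.3.3, a mean per group, a variance trend, 6 residual degrees of freedom). P-values are two-sided and adjusted by Benjamini-Hochberg over 13695 genes, with a threshold of 0.05. The fit was tested on simulated data in which the changed genes had the same change in both deleted groups. That test held no true difference in stereotypy against no stereotypy, and its outcome is not given here. Members are given library by library if called, if they had the most reads of their role, or if typical of striatum (Gnal, Adcy5, Pde10a, Prkar2b and Ppp1r1b). Gnas and Pde1a were added after their values were seen. Further pathway genes are named if called, except 1 that is not reported here. Alternatives were a replicate block, scaling by TMM, median-of-ratios or quantiles, pseudocounts of 0.25 and 4, a stricter filter (mean of 5 CPM or more) or none, array weights, 50 glial and vascular markers as covariate, only the libraries compared, each library left out, edgeR 4.0.16 and DESeq2 1.42.0 on the recovered reads, and, added after seeing the data, a covariate of the 7 cortical markers and leaving out a pair of libraries. No 2 libraries were copies (lowest chi-square per degree of freedom 12.1). P-values measure the spread between libraries, and floors cover counting error only. Intervals are 95% intervals of the limma fit. Levels per kb used the union of exons.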

Additional observations from a re-analysis of the deposited data

How the results depend on the processing

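No called value changed sign. Of the member values recomputed under the alternatives 2782 stayed on their side of the threshold, of which 163, called in neither fit, changed sign, 88 lost a call and 63 gained one. Members called in stereotypy against control, 1 in the limma fit of 9 libraries, numbered 0 with no filter, with the glial and vascular covariate and with only the libraries compared, 3 with the cortical covariate, 2 in DESeq2 and 0 to 2 with 1 library left out. In no stereotypy against control (6) they numbered 2 with no filter and 3 to 6 with 1 library left out. In stereotypy against no stereotypy (5) they numbered 2 with no filter, 2 with the cortical covariate, 8 without replicate 3 of the control and no stereotypy groups, 17 with array weights, 9 with only the libraries compared, 12 in DESeq2 and 0 to 10 with 1 library left out. For both deleted groups (3) they numbered 0 with the glial and vascular covariate, 6 with the cortical covariate, 5 in DESeq2 and 1 to 3 with 1 library left out. Where a count was 0 with the libraries complete, limma left 6 to 8 members at an unadjusted p under 0.05. Over all genes, 1593 to 4522 had such a p in these fits, the most with no filter.

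Over all genes, stereotypy against control (699) gave 330 with no filter, 21 with the glial and vascular covariate, 1571 with the cortical covariate, 326 with only the libraries compared, 1522 in DESeq2 and 124 to 805 with 1 library left out. No stereotypy against control (927) gave 484 with no filter, 592 with the glial and vascular covariate, 1873 with array weights, 568 with only the libraries compared, 1509 in DESeq2 and 317 to 935 with 1 library left out. Stereotypy against no stereotypy (1398) gave 572 with no filter, 504 with the glial and vascular covariate, 4698 with array weights, 2343 in DESeq2 and 0 to 1982 with 1 library left out. Both deleted groups against control (784) gave 392 with no filter, 80 with the glial and vascular covariate, 1394 with the cortical covariate, 1326 in DESeq2 and 403 to 732 with 1 library left out. With no filter more genes were tested, and with fewer libraries the spread rests on fewer of them; the cause of the other shifts was not tested. The split in stereotypy against control was 490 higher and 209 lower on the deposited CPM, 382 and 339 with median-of-ratios scaling and 321 and 322 in edgeR.

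Deviations from the group means correlated at -0.0798 to 0.406 between libraries of different groups with equal replicate numbers. Between those with unequal numbers they correlated at -0.422 to 0.247. The ranges overlap, and they do not settle whether equal numbers mark paired libraries. With the replicate block limma called 917, 1099, 1788 and 880 genes and 1, 6, 5 and 3 members in the order of comparisons above. Adcy7, Adcy8 and Pde8a lay near the filter, and their depth limits what can be read from them.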
